A study of Bos taurus with 8 samples.

Results

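Metallothioneins and the genes that sense and carry zinc were followed in the liver of bovine fetuses whose dams had received a low or a high plane of nutrition. The set holds 7 genes, among 12603 genes that could be matched to a probe of the array. These are MT1A, LOC613358 (metallothionein MT1E) and MT2A, the sensor gene MTF1, and the zinc transporter genes SLC30A1, SLC39A14 and SLC39A4. They were found through the accession that the scanner files give for each probe, and were chosen with the difference between LN and HN in these same arrays in view. Their differences between LN and HN are therefore given as a description, with no test. All 7 genes had a detected probe, out of 10860 genes that did, and 14 of their 16 probes were detected, which here means a signal well above background in 4 or more of the 8 fetuses.

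The fetuses were Japanese Black cattle, sired with male-sorted semen of 1 bull, and their livers were taken at 8.5 months of gestation, on day 260 ± 8.3 by the methods of the study. The LN (low nutrition) group was 4 fetuses of dams fed 60% of the nutritional requirement throughout gestation, and the HN (high nutrition) group was 4 fetuses of dams fed 120%, and the labels give no other treatment. The methods state that the LN fetuses of lowest and the HN fetuses of highest body weight were used, so diet and this choice by weight cannot be told apart. Each fetus was measured on 1 Agilent array in 1 colour according to the sample labels, although the series' design text mentions RNA pooled by group, and each array is taken here as 1 fetus.

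The LN arrays shared 1 slide and the HN arrays a second slide, each with its own scan, so the effect of diet and that of slide or scan cannot be told apart. Of 43803 spots, 32635 to 33371 were well above background in LN and 33254 to 34369 in HN, and 0 were saturated. Precision is limited by the 4 arrays in each group. Values are log2 of the processed signal after quantile normalization, and a gene with several detected probes is shown by the brightest of them unless stated. All 8 hepatocyte markers (ALB and AFP among them) were detected. Of 4 markers of the absorptive cells of the intestine, 2 (LCT and SI) had no detected or no matched probe, and the other 2 (FABP2 and VIL1) were detected. Liver tissue holds several cell types, and in these bulk samples fewer cells of a type and less RNA per cell cannot be told apart.

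Metallothioneins are small cysteine-rich proteins that bind zinc and copper in the cytosol, and fetal liver is a known site of their storage function before birth. MTF1 is a zinc finger transcription factor that binds metal response elements when free zinc rises, and metallothionein genes and SLC30A1 are its classical targets. Transporters of the SLC30 (ZnT) family move zinc out of the cytosol, to the outside or into vesicles, and those of the SLC39 (ZIP) family move it in.

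The genes of the metallothionein cluster are close relatives, which bears on how separately they can be measured. The following PCR primers were designed by the study for 3 of them and are shown 5′ to 3′ because they let a reader see this likeness. Capitals mark the 22 bases that the reverse primers for MT1A and MT1E have in common.
MT1A forward: gacctcgcttttcctccaaatg
MT1A reverse: TCTTCTTGCAGGAGGGACATCT
MT1E forward: aaggacctctactttgccacttg
MT1E reverse: cTCTTCTTGCAGGAGGGACATCT
MT2A forward: caaatgcaaagattgcaagtgcg
MT2A reverse: gcaggtttgtacacgttgttctat
The whole MT1A reverse primer is thus contained in that for MT1E, and the assays differ in their forward primers. The sequences of the array probes were not used here, and hybridisation of 1 metallothionein transcript to the probe of another was not tested. The name MT1E itself is not unique, since the reference table lists it as a synonym of 3 genes, MT1A, LOC768319 and LOC613358. In that table (assembly ARS-UCD2.0) the order of neighbouring genes on chromosome 18 is MT1A, LOC768319, LOC613358, MT2A, MT3 and MT4, followed by BBS2.

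MT1A (NM_001040492) was read by 1 probe. Its log2 signal in LN was 17.18 in fetus L5, 17.59 in L6, 17.17 in L8 and 17.39 in L9, and in HN it was 16.87 in L1, 17.16 in L2, 16.41 in L3 and 15.17 in L10. Every LN fetus lay above every HN fetus, but LN fetus L8 and HN fetus L2 differed only in the second decimal, and the groups overlapped with scaling of each array to its 75th percentile or when the background was corrected by normexp. The mean was 17.33 ± 0.197 in LN and 16.40 ± 0.878 in HN (SD, n = 4 each). The difference was 0.93 (standard error 0.38), or 1.91-fold. Without HN fetus L10 it was 0.52.

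LOC613358 (NM_001114857), also read by 1 probe, had a nearly parallel profile. Its log2 signal was 17.05, 17.50, 17.10 and 17.16 in LN fetuses L5, L6, L8 and L9, and 16.71, 17.29, 16.16 and 14.68 in HN fetuses L1, L2, L3 and L10. HN fetus L2 lay above 3 of the 4 LN fetuses, and L10 lay far below all others. The difference between LN and HN was 0.99 (standard error 0.48), or 1.99-fold, and it was 0.48 without L10.

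MT2A (NM_001075140) showed the largest mean difference of the 7 genes by brightest probe over all 8 fetuses. Without HN fetus L2 the difference of LOC613358 was larger (1.35 beside 1.24 for MT2A). In LN the log2 signal of MT2A was 14.51 in L5, 15.56 in L6, 14.25 in L8 and 15.45 in L9, and in HN it was 14.16 in L1, 13.75 in L2, 14.38 in L3 and 12.55 in L10. LN fetuses L6 and L9 stood well above all others, while L5 and L8 lay close to HN fetuses L1 and L3, and L8 lay below L3, so the groups overlapped. The difference was 1.23 (standard error 0.44), or 2.35-fold, and 0.84 without L10. A second MT2A probe gave 1.25 (standard error 0.45), and the 2 probes had a Pearson correlation of 0.999 over the 8 fetuses.

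**Figure D1:**
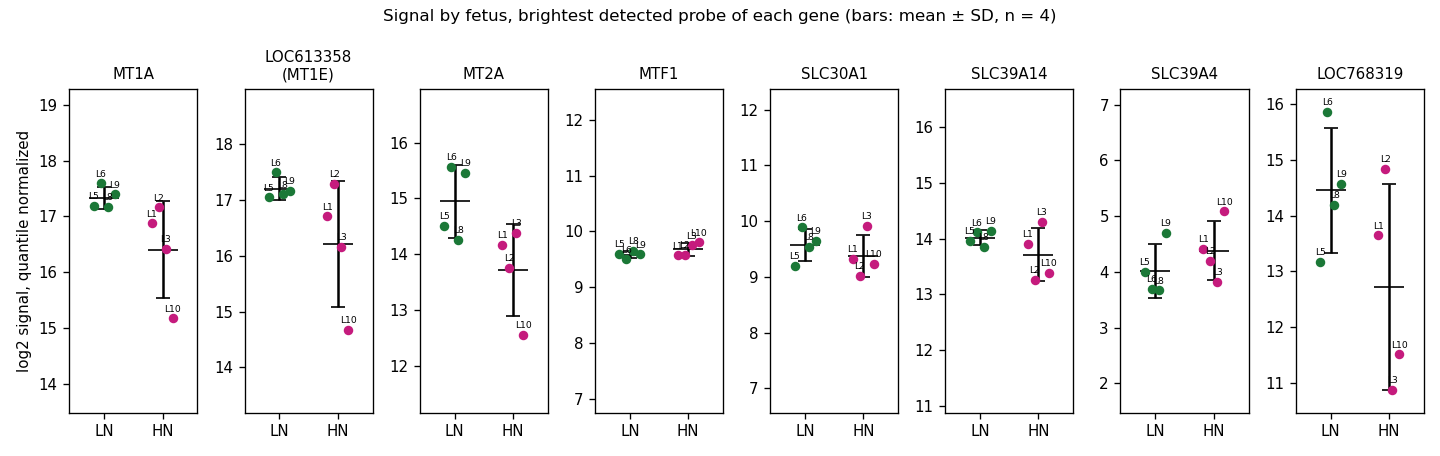
Log2 signal (quantile normalized) of the brightest detected probe of each of the 7 genes, and of LOC768319, in each LN and HN fetus, with panels that span the same range of log2 units, and bars for the mean ± SD (n = 4). HN fetus L10 is the lowest point for MT1A (15.17), LOC613358 (14.68) and MT2A (12.55), while MTF1 lies between 9.49 and 9.80 in all fetuses.

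MTF1 (NM_001035080), the zinc sensor, differed little between fetuses. Its log2 signal was 9.60, 9.49, 9.65 and 9.58 in LN fetuses L5, L6, L8 and L9, and 9.57, 9.57, 9.75 and 9.80 in HN fetuses L1, L2, L3 and L10. The groups overlapped, and HN fetuses L3 and L10, low in MT1A and LOC613358, had the highest MTF1 signals. The difference was -0.092 (standard error 0.11). Without HN fetus L10 it was -0.049. A second MTF1 probe was not well above background on any of the 8 arrays.

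SLC30A1 (NM_001205893) encodes ZnT1, which exports zinc across the plasma membrane, and it was read by 3 probes with unlike profiles. By the brightest probe the log2 signal was 9.20, 9.89, 9.53 and 9.65 in LN fetuses L5, L6, L8 and L9, and 9.32, 9.02, 9.91 and 9.24 in HN fetuses L1, L2, L3 and L10, a difference of 0.19 (standard error 0.22) with overlapping groups. This difference was 0.077 without HN fetus L2, 0.088 without LN fetus L6, 0.32 without LN fetus L5 and 0.37 without HN fetus L3. By the second probe it was 6.92, 6.64, 6.72 and 6.76 in LN and 6.45, 6.34, 6.49 and 6.26 in HN in the same order of fetuses, and every LN fetus lay above every HN fetus. The second probe differed by 0.38 (standard error 0.11), and the third by 0.0062 (standard error 0.13). Over the 8 fetuses the Pearson correlation of the first probe was 0.264 with the second and -0.514 with the third, and that of the second with the third was 0.305. On deviations from the group means these were -0.044, -0.55 and 0.628, so probes 2 and 3 were more alike within groups than either was to the brightest probe.

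SLC39A14 (NM_001098036) encodes ZIP14, a hepatocyte importer of zinc, manganese and iron. By the brightest of its 5 probes the log2 signal was 13.95, 14.11, 13.85 and 14.14 in LN fetuses L5, L6, L8 and L9, and 13.91, 13.26, 14.30 and 13.39 in HN fetuses L1, L2, L3 and L10. The LN fetuses lay close together (SD 0.134), within the span of the HN fetuses (SD 0.482), of which L3 was the highest of all 8 and L2 and L10 the lowest. The difference was 0.30 (standard error 0.23), with 0.15 without HN fetus L2, 0.19 without HN fetus L10 and 0.50 without HN fetus L3, and 0.13 as the mean over the 5 probes. The other 4 probes differed by 0.19, 0.084, 0.024 and 0.026, and correlations between the 5 probes ran from 0.653 to 0.975, so the probes varied together while the size of the difference was not the same. Without HN fetus L2 the other 4 differences were 0.065, -0.074, -0.19 and -0.14, so the direction of the last 3 turns with 1 fetus.

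SLC39A4 (NM_001046067) encodes ZIP4, the importer of dietary zinc in the intestine, and its probe was dim in liver. The log2 signal was 4.00, 3.69, 3.67 and 4.70 in LN fetuses L5, L6, L8 and L9, and 4.41, 4.19, 3.82 and 5.08 in HN fetuses L1, L2, L3 and L10. These values lie above the lowest signals called well above background, which were 2.36 to 2.98 across the arrays, and the groups overlapped. The difference was -0.36 (standard error 0.31), and it was -0.12 with normexp and -0.58 with scaling to the 75th percentile. It was -0.13 without HN fetus L10, -0.59 without LN fetus L9 and -0.55 without HN fetus L3. A second SLC39A4 probe was not well above background on any of the 8 arrays.

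By the brightest probe, 3 of the 7 genes (MT1A, LOC613358 and MT2A) were more than 1.25-fold higher in LN, where 7.82% of all detected genes were. SLC39A4 was the 1 gene more than 1.25-fold lower, where 8.63% of all genes were. Every LN fetus lay above every HN fetus for 1 of the 7 (MT1A, with 2.59% of all genes) and below for 0 (with 1.56% of all genes). Because the 7 genes were selected on this contrast, nothing is read from these counts. Across the whole array, limma called 0% of the 33439 detected probes at an adjusted p of 0.05 (lowest limma adjusted p = 0.634), and 2113 had an unadjusted p of at most 0.05. The median difference of all detected genes was 0.0075, and 51.6% of them were higher in LN. With scaling to the 75th percentile the median was -0.023, with 612 genes over 1.25-fold higher and 1433 lower in place of 849 and 937, while the 3 metallothionein genes kept their direction.

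**Figure D2:**
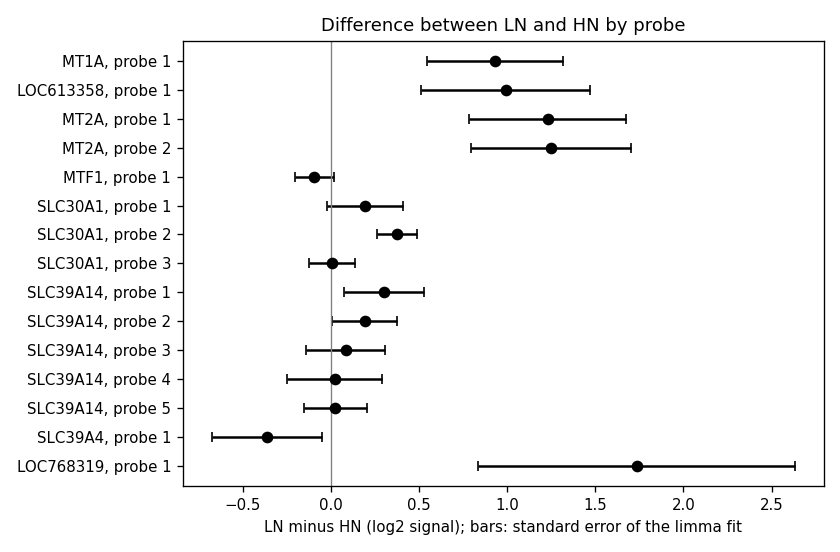
Difference between the LN and HN means (log2 signal) for each detected probe of the 7 genes and of LOC768319, with the standard error of the limma fit as bars. Both MT2A probes lie at 1.23 and 1.25, while the SLC30A1 probes run from 0.0062 to 0.38 and the SLC39A14 probes from 0.024 to 0.30.

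The spread within groups of MT1A and LOC613358 was set largely by HN fetus L10, and that of MT2A less so. The spread within groups was described by the SD pooled over LN and HN, which had a median of 0.232 over all detected genes. It was 0.637 for MT1A, larger than for 93.0% of genes, 0.806 for LOC613358 (96.3%) and 0.743 for MT2A (95.3%). SLC39A4 (0.506, 88.2%), SLC39A14 (0.354, 74.7%) and SLC30A1 (0.336, 72.2%) were intermediate. For MTF1 it was 0.0968, larger than for 5.89% of genes. Without L10 it was 0.284 for MT1A (larger than for 63.2% of genes), 0.391 for LOC613358 (79.0%) and 0.550 for MT2A (90.7%), beside a median of 0.228. In HN, MT1A spanned 15.17 to 17.16 and LOC613358 14.68 to 17.29. Over all 8 fetuses the highest signal was 5.34 times the lowest for MT1A, 7.08 times for LOC613358 and 8.07 times for MT2A, with L6 highest and L10 lowest for each of the 3. Without L10 these ratios were 2.26, 2.53 and 3.50.

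Another gene of the cluster, LOC768319 (NM_001078134), is not among the 7 and was added after its values were seen. Its log2 signal was 13.17, 15.86, 14.20 and 14.57 in LN fetuses L5, L6, L8 and L9, and 13.64, 14.84, 10.87 and 11.51 in HN fetuses L1, L2, L3 and L10. LN fetus L6 was again the highest, but the lowest was HN fetus L3 rather than L10, and LN fetus L5 lay below HN fetuses L1 and L2. The difference was 1.73 (standard error 0.90), or 1.12 without HN fetus L3, and the pooled SD of 1.53 was larger than for 99.5% of genes. Of the rest of the cluster, MT3 (NM_001113304), known mainly as the metallothionein of brain, differed by 0.27 (standard error 0.21), and MT4, that of stratified epithelia, was not detected.

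**Figure D3:**
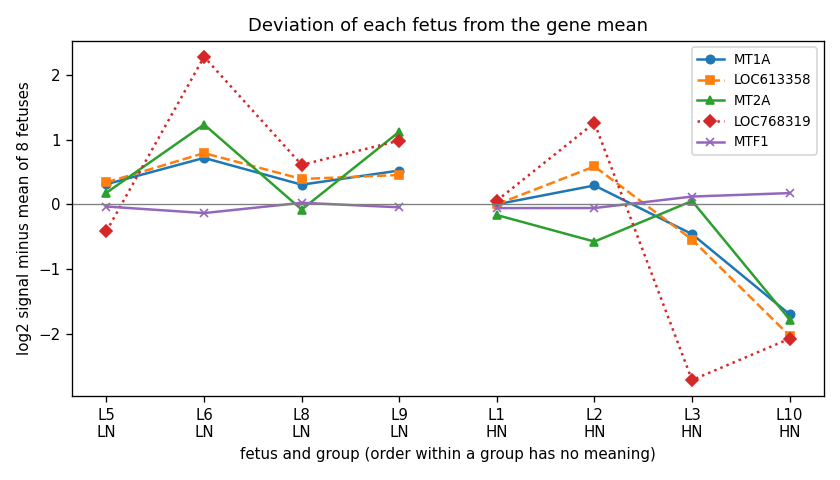
Deviation of each fetus from the mean of 8 fetuses (log2 signal) for MT1A, LOC613358, MT2A, LOC768319 and MTF1; lines join values of 1 gene within a group, and the order of fetuses has no meaning. MT1A and LOC613358 run almost together, MT2A departs from them in both groups, above both at LN fetuses L6 and L9 and at HN fetus L3 and below both at HN fetus L2 and LN fetus L8, LOC768319 is lowest at L3 (10.87), and MTF1 stays near 0.

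Whether the 7 genes varied together among fetuses was examined over their 21 pairs, with exact permutation p over 40320 pairings, 2-sided, adjusted by Benjamini-Hochberg over the pairs. Since differences between LN and HN were used to choose the genes and also enter a pooled correlation, each correlation was computed again on the deviations from the group means, with permutation within groups. Of 21 pairs, 5 passed an adjusted p of 0.05 when pooled and 2 on the deviations. By Spearman's rho 0 pairs passed (lowest exact permutation p after adjustment = 0.147), and 5 had an unadjusted p of at most 0.05, where 8 did by Pearson's r.

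MT1A and LOC613358 had the closest profiles. Pearson's r was 0.992 (exact permutation p = 2.98e-04, adjusted 0.00625) and rho was 0.833. On deviations from the group means r was 0.993 (exact permutation p = 0.00347, adjusted 0.0365), it was 0.884 without the 2 fetuses farthest from the median of MT1A, and it was 0.962 without L10.

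MT2A followed MT1A less closely. Their r was 0.844 (exact permutation p = 0.00876, adjusted 0.0431, rho 0.833), 0.720 on the deviations (exact permutation p = 0.0868, adjusted 0.304) and 0.575 without L10. Without the 2 fetuses farthest from the median of MT1A it was 0.813. For LOC613358 and MT2A, r was 0.781 (exact permutation p = 0.0299, adjusted 0.0896, rho 0.524) and 0.360 without L10, so the size of both correlations depends on this fetus. HN fetus L2 shows the split, with the second highest LOC613358 signal and the second lowest MT2A signal of the 8 fetuses.

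MTF1 ran opposite to MT1A. The r was -0.890 (exact permutation p = 0.00260, adjusted 0.0186, rho -0.619), -0.864 on the deviations (exact permutation p = 0.00347, adjusted 0.0365), -0.832 without L10 and -0.504 without the 2 fetuses farthest from the median. For LOC613358 and MTF1 r was -0.887 (exact permutation p = 0.00265, adjusted 0.0186, rho -0.738), -0.851 on the deviations (exact permutation p = 0.0104, adjusted 0.0729, past the threshold only when pooled), -0.832 without L10 and -0.481 without the 2 farthest fetuses. For both pairs the fetuses farthest from the median were HN fetuses L10 and L3. The MTF1 signals behind both relations span 0.31 on the log2 scale. For MT2A and MTF1 r was -0.713 (exact permutation p = 0.0461, adjusted 0.121, rho -0.405), which did not pass the threshold. It was -0.599 on the deviations, -0.403 without L10 and -0.031 without the 2 fetuses farthest from the median of MT2A (L10 and L6).

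Among the transporters, SLC30A1 and SLC39A14 passed the threshold by Pearson's r over all fetuses only. Their r by brightest probes was 0.831 (exact permutation p = 0.0103, adjusted 0.0431), with a rho of 0.810 (adjusted exact permutation p = 0.147), and r was 0.812 on the deviations (exact permutation p = 0.0139, adjusted 0.0729), 0.835 without L10 and 0.759 without the 2 farthest fetuses. HN fetus L3 was highest and HN fetus L2 lowest in both genes. The other SLC30A1 probes did not follow the brightest probe, as given above. For MT2A and SLC39A14 r was 0.756 (exact permutation p = 0.0263, adjusted 0.0896), which did not pass the threshold.

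**Figure D4:**
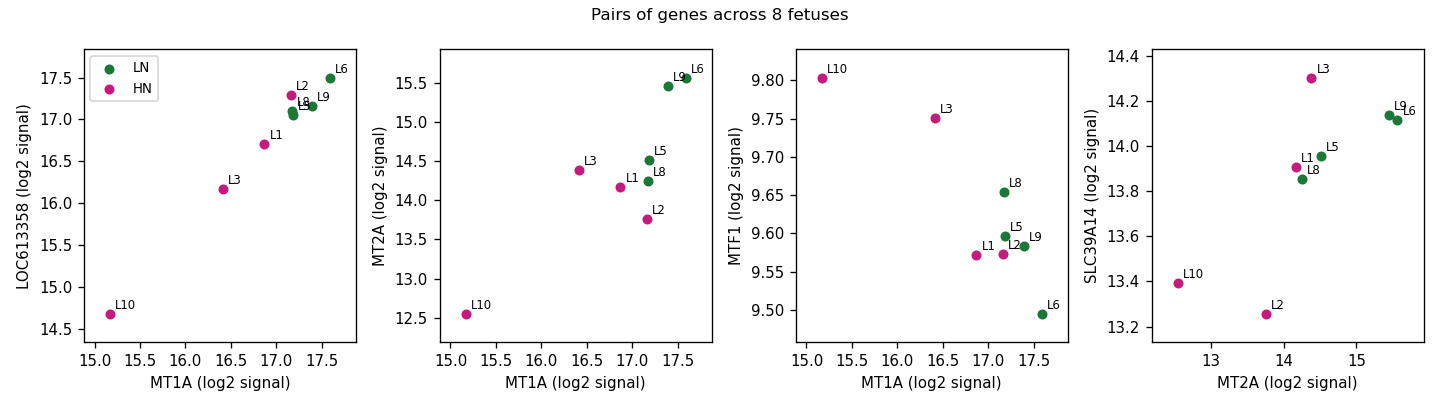
Log2 signals of 4 pairs of genes in the 8 fetuses, LN in green and HN in magenta, each point 1 fetus. MT1A and LOC613358 fall along a line (r = 0.992), MT1A and MT2A (r = 0.844) are stretched by HN fetus L10, MT1A and MTF1 slope down (r = -0.890), and MT2A and SLC39A14 (r = 0.756) scatter with HN fetus L3 high in SLC39A14.

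Genes with profiles like the metallothioneins were ranked by Pearson's r, over the 8 fetuses, to the mean of the centred MT1A, LOC613358 and MT2A profiles. This mean was 0.28 in L5, 0.92 in L6, 0.21 in L8 and 0.70 in L9, and -0.053 in L1, 0.10 in L2, -0.32 in L3 and -1.84 in L10. Among 3862 genes with an SD of at least 0.3 over the fetuses, the highest r belonged to MARS1 (0.958), the cytosolic methionyl-tRNA synthetase, NR2E3 (0.948), a nuclear receptor whose signal reached the background in L10, OTULINL (0.939), AHSA2 (0.932), related to an activator of the chaperone HSP90, and SPRY1 (0.932), an inhibitor of growth factor signalling. The lowest belonged to FANCD2 (-0.966), a DNA repair gene, VSIG8 (-0.956) and CDCA3 (-0.954), a cell division gene. The difference between LN and HN, on which the metallothioneins were chosen, enters this ranking. On deviations from the group means r was 0.924 for MARS1, 0.937 for NR2E3, 0.967 for OTULINL, 0.890 for AHSA2 and 0.930 for SPRY1. For FANCD2, VSIG8 and CDCA3 it was -0.978, -0.938 and -0.990. HN fetus L10 was lowest for all 5 of the former genes and highest for all 3 of the latter. Without L10 the rank of MARS1 was 19 (r = 0.858), that of NR2E3 was 61, and OTULINL, AHSA2 and SPRY1 ranked 157, 223 and 229. Of the 3 lowest genes, VSIG8 (r = -0.899) and FANCD2 (r = -0.832) then ranked 3850 and 3812 of 3862, and CDCA3 (r = -0.775) ranked 3767. Over all 8 fetuses LOC768319 ranked 100 (r = 0.764) and MT3 ranked 244 (r = 0.653), and without L10 they ranked 48 (r = 0.800) and 335 (r = 0.559).

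The other listed metallothioneins and zinc transporters, among which LOC768319 was not counted, did not share a direction. Of 23 listed genes, 17 were detected, 6 of them higher and 11 lower in LN, with a median difference of -0.066 beside 0.0075 for all genes. By limma 0 passed an adjusted p of 0.05 and 1 had an unadjusted p of at most 0.05, where 2.75% of all genes were lower and 3.30% higher at that threshold. This was SLC30A10 (NM_001192180), a transporter of the ZnT family that exports manganese. Its log2 signal was 6.71, 6.78, 7.28 and 6.997 in LN fetuses L5, L6, L8 and L9, and 7.49, 7.54, 7.39 and 7.65 in HN fetuses L1, L2, L3 and L10. Every LN fetus lay below every HN fetus, with a difference of -0.58 (standard error 0.15, limma adjusted p = 0.760). The number of genes of this list at that unadjusted threshold was 2 with position on the slide as a block, which adds SLC39A2, and 3 without HN fetus L2 or with no filter on dim probes.

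SLC30A2 and SLC39A2 had differences of similar size with larger errors. SLC30A2, which loads zinc into vesicles, differed by 0.56 (standard error 0.39, limma adjusted p = 0.834), at log2 signals of 2.08 to 4.14 that reach the background. It was 0.055 with normexp, 0.32 with scaling to the 75th percentile, 0.19 without HN fetus L3 and 0.87 without HN fetus L2. SLC39A2, an importer of the plasma membrane, differed by -0.46 (standard error 0.29, limma adjusted p = 0.823), with -0.27 under normexp, -0.23 without HN fetus L1 and -0.26 without LN fetus L9. The remaining detected genes of the list of other zinc genes differed by between -0.33 (SLC39A11) and 0.27 (MT3). The liver importers SLC39A5 and SLC39A8 were at -0.066 (standard error 0.15) and 0.16 (standard error 0.12). SLC30A3 and SLC39A12 were not detected, and SLC30A4, SLC30A8 and SLC30A9 had no matched probe.

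**Figure D5:**
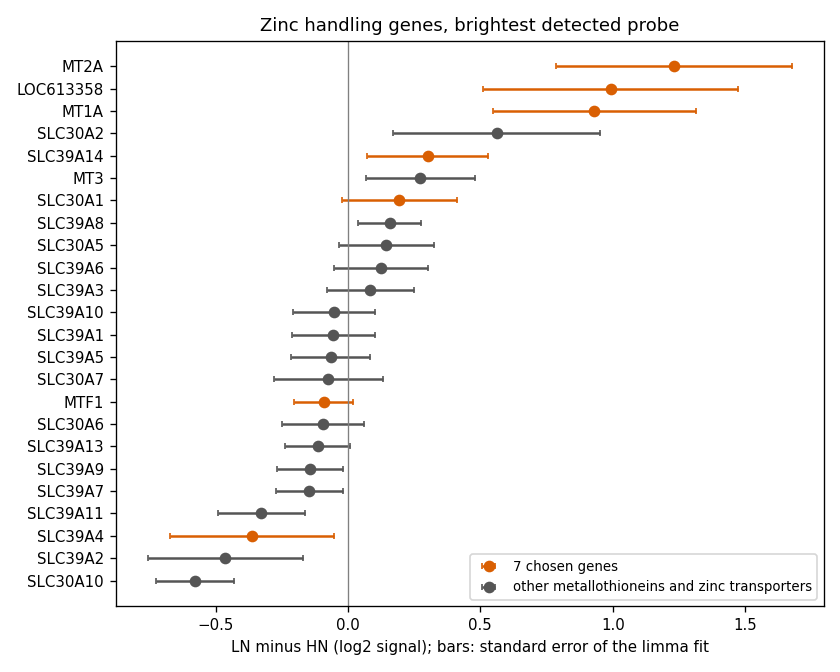
Difference between the LN and HN means (log2 signal) of the 7 genes (orange) and of the other listed metallothionein and zinc transporter genes that were detected (grey), by brightest probe, with the standard error of the limma fit as bars. LOC768319 (1.73) is not on that list and is not shown. MT2A (1.23), LOC613358 (0.99) and MT1A (0.93) lie to the right of all others shown, and SLC30A10 (-0.58) lies farthest to the left.

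Metallothioneins also bind copper, and 10 of 13 copper handling genes were detected, 4 higher and 6 lower in LN, with a median difference of -0.10. This median was -0.027 without HN fetus L1, -0.0295 without LN fetus L6, -0.045 without HN fetus L3, -0.046 without HN fetus L10, -0.067 without LN fetus L8 and -0.061 with normexp, where 3 of 10 were higher. By limma 0 passed an adjusted p of 0.05, and 1 had an unadjusted p of at most 0.05 (beside 2.75% of all genes lower and 3.30% higher). This was ATP7A (NM_001192852), a copper exporting ATPase, at 6.10, 6.05, 5.85 and 6.07 in LN fetuses L5, L6, L8 and L9 and at 6.05, 6.34, 6.40 and 6.50 in HN fetuses L1, L2, L3 and L10. HN fetus L1 lay among the LN fetuses, and the difference was -0.31 (standard error 0.13, limma adjusted p = 0.785) and -0.19 with normexp. Its unadjusted p was above 0.05 with 7 of the 8 fetuses left out singly (all but L1), with position on the slide as a block and with trend and robust settings. CP, the copper-carrying plasma ferroxidase, differed by -0.94 (standard error 0.67), with signals from 9.20 to 12.60, and by -0.497 when L6 and by -0.57 when L10 was left out. SCO2, which delivers copper to cytochrome c oxidase, differed by -0.21 (standard error 0.29), by 0.036 without LN fetus L6 and by between -0.39 and -0.052 with scaling or normexp.

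Glucocorticoids, the acute phase response and oxidative stress are known inducers of metallothionein genes, and lists of their response genes were counted beside the metallothioneins. Of 11 detected glucocorticoid response genes, 5 were higher and 6 lower in LN, with a median of -0.014 (0.14 without LN fetus L5, where 8 of 11 were higher, 0.12 without HN fetus L1, -0.26 without LN fetus L6, where 3 of 11 were higher, between -0.12 and -0.017 without any other fetus, and -0.24 with the mean over probes), and 0 passed an adjusted p of 0.05 by limma. An unadjusted p of at most 0.05 was found for 1 gene of this list (beside 2.75% of all genes lower and 3.30% higher). This was HSD11B1 (NM_001123032), which regenerates active cortisol. Its log2 signal was 8.03, 9.10, 9.63 and 9.27 in LN fetuses L5, L6, L8 and L9, and 10.80, 10.15, 9.34 and 9.74 in HN fetuses L1, L2, L3 and L10, with 1 HN fetus (L3) below LN fetus L8. The difference was -0.999 (standard error 0.40, limma adjusted p = 0.783). Its unadjusted p was above 0.05 without L5, L6, L1 or L2 and with position on the slide as a block. FKBP5, which dampens the glucocorticoid receptor and is induced by it, differed by 0.53 (standard error 0.33), and ZBTB16, another induced gene, by 0.46 (standard error 0.25). FKBP5 was at 0.33 without LN fetus L9 and 0.34 without HN fetus L10, and ZBTB16 at 0.24 with normexp. The number of genes higher in LN was 8 of 11 without LN fetus L5 and 3 of 11 without LN fetus L6.

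Of 12 detected acute phase genes 6 were higher and 6 lower, with a median of 0.017 (-0.050 without HN fetus L3 to 0.023 without LN fetus L6), and 0 had an unadjusted or adjusted limma p of at most 0.05. SAA3, a serum amyloid, differed by 1.19 (standard error 1.24), but by -0.040 without HN fetus L3, where its signal was 3.38, by 0.59 without LN fetus L6, 2.02 without HN fetus L10 and 0.55 with normexp. HP, haptoglobin, differed by 0.76 (standard error 0.60) and LBP, the lipopolysaccharide binding protein, by -0.73 (standard error 0.44). HP was at 0.2997 without HN fetus L1, 1.21 without HN fetus L3 and 0.38 with normexp, and LBP at -0.44 without LN fetus L5 and -0.45 without HN fetus L10. ORM1 was at the highest value that quantile normalization gives, 18.64, in all fetuses but HN fetus L10 (18.42), so its difference has a ceiling. Of 7 oxidative stress response genes 6 were higher and 1 lower, with a median of 0.068 (0.014 without LN fetus L5 and 0.27 without HN fetus L3), and 0 had an unadjusted or adjusted limma p of at most 0.05. SRXN1, which repairs oxidised peroxiredoxins, differed by 0.75 (standard error 0.53), GCLC, the catalytic subunit for the first step of glutathione synthesis, by 0.39 (standard error 0.23), and NFE2L2, the regulator of this response, by 0.18 (standard error 0.21). Without HN fetus L2 these differences were 0.31, 0.17 and 0.057, and without HN fetus L3 they were 1.15, 0.50 and 0.39. NFE2L2 was at 0.10 without HN fetus L10, GCLC was at 0.22 with scaling and 0.11 with normexp, and NFE2L2 at 0.11 with normexp or the mean over its probes. With the mean over probes 4 of the 7 genes were higher.

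Markers of blood cells also differed between the same fetuses. These lists were chosen with earlier results of these data known, and the study names CATHL4 and HBM, both listed, among its most raised genes in LN. The neutrophil list also holds the related cathelicidin genes CATHL1 to CATHL6, so its members are not separate readings. Their counts by direction are therefore a description. Of 13 neutrophil markers, all were detected and 12 were higher in LN, with a median difference of 0.91. Their summed signal was 11700 to 33670 in LN and 6350 to 15230 in HN, on the linear scale of the normalized signal. Their mean deviation was highest in LN fetuses L9 (1.22) and L6 (0.64), which were also highest in MT2A, and lowest in HN fetuses L1 (-1.08) and L10 (-0.99), of which L10 was lowest in the metallothioneins and L1 was not. As a description over 8 fetuses, r of this mean with the metallothionein mean was 0.748, with 0.539 on deviations from the group means and 0.718 without L10. The r was 0.123 for the erythroid mean, 0.257 for hepatocyte, 0.113 for endothelial, -0.173 for stellate and fibroblast and -0.323 for macrophage markers. Without L10 it was 0.653 for hepatocyte and 0.41 for endothelial markers. FKBP5 and ZBTB16, named above, had an r of 0.786 and 0.794, so such a value is not particular to neutrophil markers. Of 8 erythroid markers 5 were detected and all 5 were higher in LN, with a summed signal of 14500 to 139000 in LN and 7864 to 32320 in HN, and LN fetus L5 highest. Without L5 their median difference was 0.36, in place of 1.21, with 4 of 5 higher, and without HN fetus L1 it was 0.80. The 8 hepatocyte markers had a median difference of 0.013, with 7 of 8 higher in LN (5 of 8 without L9 or L1). This median ran from 0.0083 without L1 to 0.028 without L8 or L10. Of the macrophage markers 1 of 8 detected was higher (3 of 8 without L9, L1 or L3, 2 of 8 without L8 or L10, and 0 of 8 without L6 or L2). Of the endothelial markers 3 of 5 were higher (2 of 5 without L6 or L2, and 4 of 5 without L5). Of the stellate and fibroblast markers 0 of 5 were higher (2 of 5 without HN fetus L2). Beyond these values, the part of neutrophil or erythroid cells in the metallothionein signal was not tested.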

How the data were processed

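Gene expression in liver was measured on 1-colour Agilent bovine arrays, 1 per fetus (4 LN, 4 HN). The authors deposited each array's scanner output, with spot intensities background-subtracted by Agilent Feature Extraction 11.0.1.1 and not normalized across arrays. Also deposited by the authors was a log2 table of 31068 probes, quantile normalized per the study's methods, which name no test for the arrays. The 31061 of them that could be compared were well above background in all 8 fetuses. Here control spots and outliers were left out (16 probes), log2 intensities were averaged per probe and quantile normalized over 43637 probes, and 26743 probes were matched by accession to genes of the reference table. The array's design follows another build, so no coordinates are given.

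Differences between LN and HN were fitted by limma 3.58.1, run in R 4.3.3 (2-sided, Benjamini-Hochberg adjustment over detected probes). Correlations used exact permutation in Python 3.11.15. The functions were checked on simulated data. The methods give as many fetuses as cows, kept at farms of Kagoshima University and of NARO. Labels do not tie fetuses to dams, farms or further batches. The limma p-values set the group difference, in which slide and scan are included, against the spread between these fetuses. The 7 genes, the gene lists and the cell type markers were chosen with earlier results of these data known. Besides the 7 genes, the text names the list genes with an unadjusted limma p of at most 0.05 or no overlap between groups (where fewer than 3, the 3 with the largest difference), and the 5 highest and 3 lowest genes by r to the metallothionein mean. MT3, SLC39A5, SLC39A8, SLC39A11 and ORM1 were named after their values were seen. The lists were other zinc genes, copper handling, glucocorticoid, acute phase and oxidative stress response genes. Alternatives were scaling to the 75th percentile, normexp (offset 50), the log2 table, no filter or detection on all 8 arrays, the mean over probes, position on the slide as a block, eBayes with trend and robust settings, and each fetus left out in turn. LOC768319, leaving L10 out of correlations, likeness and SDs, and leaving single fetuses out of the marker lists were added after seeing the data. qPCR values of the study were not used here.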

Additional observations from a re-analysis of the deposited data

Results flagged for a closer look

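In 46 sets of 4 fetuses (1 gene in 1 group) the highest or lowest fetus was set against the other 3, and chance marks about 1 in 20 such sets. In 2 sets a fetus stood apart. SLC39A2, a zinc importer, had a log2 signal of 5.3195 in LN fetus L9, below the other LN fetuses at 6.12 to 6.18. SCO2, a copper chaperone, had a log2 signal of 4.7491 in HN fetus L3, below the other HN fetuses at 5.37 to 5.47.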

How the results depend on the processing

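By brightest probe, none of the 7 genes changed direction with scaling to the 75th percentile, normexp, the log2 table or 1 fetus left out, nor did MT2A, SLC30A1 and SLC39A14 with the mean over probes. The filters, the position block and the eBayes settings leave these differences as they are by construction. When single fetuses were left out, the log2 difference ran from 0.52 to 1.18 for MT1A, 0.48 to 1.35 for LOC613358, 0.84 to 1.46 for MT2A, -0.13 to -0.049 for MTF1, 0.077 to 0.37 for SLC30A1, 0.15 to 0.50 for SLC39A14 and -0.59 to -0.13 for SLC39A4. The 3 metallothioneins were each lowest when L10 was left out. With single fetuses left out, the count of probes at a limma adjusted p of 0.05 ran from 0 to 1 (1 without LN fetus L6), and at an unadjusted p from 1343 (without HN fetus L10) to 2639 (without HN fetus L3), and across the other settings that count ran from 1672 (position block) to 2963 (no filter). With single fetuses left out, the median of the other zinc genes ran from -0.1265 (without LN fetus L9) to -0.0108. SCO2 then ran from -0.3809 to 0.0355 (positive without LN fetus L6) and SAA3 from -0.0397 (without HN fetus L3) to 2.0192. The cause of these shifts was not tested. The median of the acute phase genes changed sign without L5, L1 or L3, with no filter and with the mean over probes, and that of the glucocorticoid response genes without L5 or L1. The unadjusted calls of ATP7A and HSD11B1 were lost with 7 and 4 of the 8 fetuses left out singly, and that of SLC30A10 with 0. Unadjusted calls rose to 2 oxidative stress genes without L3, 2 glucocorticoid response genes without L8 and 1 acute phase gene without L6. Over all detected probes such calls numbered 2639, 2132 and 2148 in these fits, in place of 2113, so nothing particular to the lists is read from them. By pooled Pearson's r, between 5 and 6 of 21 pairs passed under 4 other settings of the arrays or probes. The pooled r includes the difference between LN and HN used to choose the genes. The count on deviations from the group means was not repeated under these settings. SLC39A4 and SLC30A2 lie near background, which limits their differences. No paired analysis was possible because LN and HN share no replicate numbers; the position block pairs arrays by their place on the slide, not animals. Slide could not be fitted as a block because each group lay on its own slide.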
